A study of Mus musculus with 18 samples.

Results

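The Hedgehog pathway genes examined here were 7 of the 19153 genes listed in each library: *Gas1*, *Ptch1*, *Smo*, *Sufu*, *Gli1*, *Gli2* and *Gli3*. They were chosen by symbol through their Ensembl identifiers, and all 7 were found once and passed the filter on low counts. RNA was sequenced from 18 libraries of immortalized mouse myoblasts, with 3 replicates in each of 6 groups. Cells carrying wildtype *Lap2α* (WT) or a *Lap2α* knockout (KO) were harvested while proliferating in 20% serum (Prol), at confluence on day 0 of differentiation (D0), and on day 2 after 48 h in 5% serum (D2). All cells, controls included, came from a p53 knockout mouse. The knockout was made with a Cas9 plasmid and a guide specific for *Lap2α*, the controls received the plasmid without the guide, and both lines were bulk-sorted pools and not single clones. No ages are given for this line. Neither the labels nor the methods state that the replicates came from separate cultures, so p-values measure only the spread between these libraries.

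Hedgehog ligands bind the receptor Ptch1 together with co-receptors such as Gas1, Cdon and Boc. Without ligand, Ptch1 keeps the membrane protein Smo inactive and out of the primary cilium. Ligand binding releases Smo, which frees the Gli transcription factors from their inhibitor Sufu. Gli2 is the main activator, Gli3 is largely processed to a repressor, and *Gli1* and *Ptch1* are themselves switched on by Gli proteins, so their transcripts serve as a readout of the pathway. In the embryo, Hedgehog signals take part in the specification of muscle progenitors.

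In the GENCODE M21 annotation of GRCm38, *Gas1* lies at chr13:60174405-60177365 (minus strand), *Ptch1* at chr13:63508328-63573598 (minus strand), *Smo* at chr6:29735503-29761365 (plus strand) and *Sufu* at chr19:46396896-46488804 (plus strand). *Gli1* lies at chr10:127329882-127341974 (minus strand), *Gli2* at chr1:118834132-119053619 (minus strand) and *Gli3* at chr13:15463235-15730026 (plus strand). *Gas1*, *Ptch1* and *Gli3* are thus on the same chromosome. *Ptch1*, *Smo* and *Gli3* each overlap 1 other annotated gene on the same strand, a pseudogene for *Smo* and *Gli3*, and reads from such overlaps are uncertain. *Gli1* overlaps *Arhgap9* and 1 antisense gene on the opposite strand, which the strand-specific counting separates.

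Promoter windows of 300 bases, from 250 bases before to 50 bases after the start of the gene, were taken from RefSeq on GRCm38.p6 and matched 6 of the 7 genes, with *Gli1* unmatched. The windows of *Gas1* and *Smo* are printed because these genes changed between Prol and D2 in opposite directions, and that of *Ptch1* because it is a Gli target. They cover chr13:60177486-60177785 on the minus strand for *Gas1*, chr6:29735247-29735546 on the plus strand for *Smo* and chr13:63565686-63565985 on the minus strand for *Ptch1*, whose annotated span holds further starts upstream. The RefSeq start of *Gas1* lies upstream of its GENCODE span, which begins at 60177365 on that strand, so its window holds no base of that span. Capitals mark the GC box GGGCGG, read on either strand.
Gas1: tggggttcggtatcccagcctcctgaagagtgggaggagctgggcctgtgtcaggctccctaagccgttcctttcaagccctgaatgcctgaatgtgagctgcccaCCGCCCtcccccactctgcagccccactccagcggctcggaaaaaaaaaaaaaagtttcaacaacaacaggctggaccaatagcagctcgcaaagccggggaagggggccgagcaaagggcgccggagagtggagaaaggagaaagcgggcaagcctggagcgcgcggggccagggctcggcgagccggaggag
Smo: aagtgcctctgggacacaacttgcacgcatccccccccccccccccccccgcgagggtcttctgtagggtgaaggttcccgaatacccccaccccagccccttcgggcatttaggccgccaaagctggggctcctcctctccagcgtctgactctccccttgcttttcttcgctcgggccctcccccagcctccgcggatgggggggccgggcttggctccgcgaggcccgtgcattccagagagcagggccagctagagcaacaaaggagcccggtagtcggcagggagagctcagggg
Ptch1: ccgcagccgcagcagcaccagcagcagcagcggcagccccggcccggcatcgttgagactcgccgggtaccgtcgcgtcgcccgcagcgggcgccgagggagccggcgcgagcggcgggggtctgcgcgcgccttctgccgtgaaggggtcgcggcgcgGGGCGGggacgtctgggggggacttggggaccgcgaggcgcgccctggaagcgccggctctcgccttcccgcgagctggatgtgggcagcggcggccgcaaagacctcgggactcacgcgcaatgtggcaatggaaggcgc
The GC box was present in the windows of 5 of the 6 genes (*Gas1*, *Ptch1*, *Sufu*, *Gli2* and *Gli3*) and in 35.7% of all 32851 promoter windows. The 6 windows held 56.3% to 76.3% G and C, against a median of 52.7% over promoter windows. Windows of like composition were not compared, so the count is no result about these genes. The GLI-type motif GACCACCCA, searched on both strands, was in none of the 6 windows and in 0.253% of all windows. The E-box CAGCTG, a palindrome of the kind bound by myogenic factors, was in none of the 6 and in 16.3% of all. Both absent motifs left no overlap between motifs in these windows, and an absent match says only that the letters are not there.

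The 18 libraries held 26437823 to 41619016 expected counts (median 32939620), and levels are given as CPM, counts scaled to the size of the library after adjustment by the trimmed mean of M values (TMM), with 0.5 counts added. *Tmpo*, the gene that encodes LAP2α, averaged 299.7 CPM in WT and 246 CPM in KO at Prol, a gene total that does not separate the LAP2α isoform from the others. Of the 9 listed muscle markers, 8 rose from Prol to D2 in both genotypes. In WT Prol, *Myf5* averaged 24.5 CPM, *Myod1* 2.59 CPM and *Des* 3.44 CPM, and *Pax7* was not analysed here. The summed muscle markers reached 2593 to 5136 CPM in WT D2 and 1566 to 1927 CPM in KO D2, so that the genotypes did not overlap at D2. Among single genes, 6.17% of all genes did not overlap there. The sum rests largely on *Myh3* and *Acta1*, with means of 1374 and 1135 CPM in WT D2. None of the 9 markers passed an adjusted p under 0.05 (limma) for KO against WT at D2, and *Myf5* was higher in KO (log2 difference 0.16). The D2 libraries numbered 1 stood apart. Their counts differed from those of the other D2 replicates by a chi-square per degree of freedom of 338 to 494, against 34.8 and 75.0 between replicates 2 and 3, and their TMM factors were 0.909 and 0.931 against 1.11 to 1.18. At D0, replicates 1 and 2 differed by 453 to 461. Values without both D2 libraries numbered 1, a choice made after the data were seen, are therefore given beside the D2 results.

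Relative to length, the 7 genes spanned a wide range of levels. Group means in CPM per kilobase of merged exons were 58.0 to 182 for *Gas1*, 18.5 to 30.4 for *Smo*, 4.58 to 8.58 for *Gli3* and 4.36 to 5.09 for *Sufu*. They were 0.886 to 1.61 for *Ptch1*, 0.423 to 0.576 for *Gli2* and 0.0897 to 0.122 for *Gli1*. *Gli3*, the Gli protein that is mostly a repressor, was thus listed at the highest level per kilobase of the 3 Gli genes in every group, and *Gli1* at the lowest. Across the ordered group means of each gene, neighbouring groups overlapped in their libraries, with the exception of WT D0 and KO D2 for *Smo*.

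**Figure D1:**
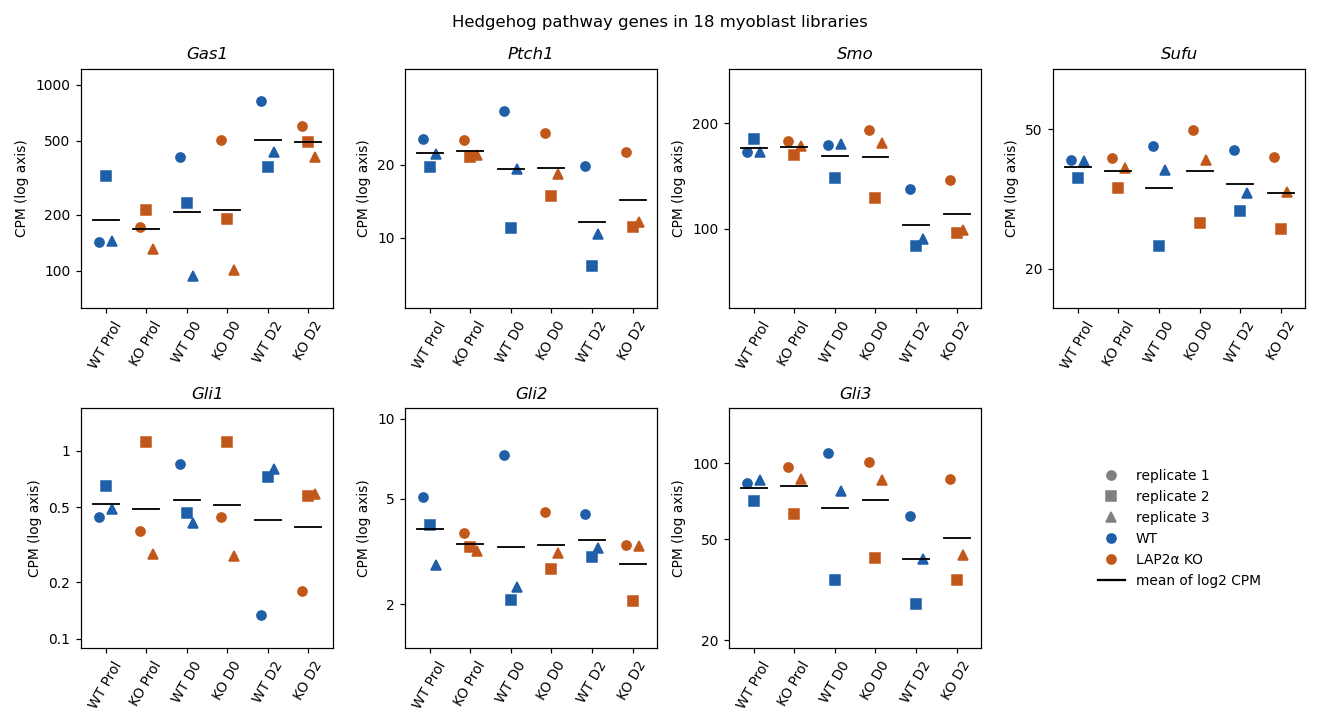
CPM of the 7 Hedgehog pathway genes (log axis, a separate scale for each gene) in the 18 libraries, by group on the x axis; symbols give the replicate number, colours the genotype and black lines the mean of log2 CPM. *Gas1* is at 363 to 817 CPM in the D2 libraries and 132 to 325 CPM in the Prol libraries, and *Smo* at 89.1 to 138 CPM and 162 to 179.8 CPM.

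The first question was how these genes changed when myoblasts differentiated. In the main fit, without pairing of libraries, *Smo* fell between Prol and D2 in both genotypes and the co-receptor gene *Gas1* rose in KO. No change passed the test in that fit for *Sufu* or any of the Gli genes. With an adjusted p under 0.05 (limma over 17672 genes, Benjamini-Hochberg), 1 of the 7 genes was called in WT, where 30.7% of all genes were called, and 2 of 7 in KO, where 32.3% were called. In that fit the shares of the 7 genes were thus not above those of all genes. The KO libraries of Prol and D2 met the rule for pairing by replicate number. With replicate blocks, *Gas1*, *Ptch1*, *Smo* and *Gli3* were called in KO (limma's adjusted p = 0.00575, 0.0168, 0.00202 and 0.0177). Of all genes, 48.6% were called there with the blocks. The median log2 fold change of the 7 genes was -0.29 in WT and -0.32 in KO, against -0.01 and 0.02 over all genes. RNA was measured in bulk, so fewer cells of a type and less RNA per cell cannot be told apart.

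*Gas1* encodes a membrane-anchored co-receptor that was first known as a gene of growth-arrested cells. It was at 143, 325 and 144 CPM in replicates 1 to 3 of WT Prol and at 817, 363 and 436 CPM in WT D2. In KO it was at 172, 211 and 132 CPM at Prol and at 600.3, 493 and 412 CPM at D2. Every D2 library was above every Prol library in both genotypes, a separation also seen, in either direction, for 43.5% of all genes in WT and 47.7% in KO. The log2 fold change was 1.56 ± 0.56 (SE) in KO, a 2.94-fold rise with limma's adjusted p = 0.0438. In WT it was 1.43 ± 0.56 with an adjusted p = 0.0658, which missed the threshold. The difference between the genotypes' responses was 0.13, with a 95% interval of -1.55 to 1.82. In WT the value was called without WT Prol replicate 2 (1.82). The call in KO was lost when any one of the 6 KO libraries of these groups was left out (log2 fold changes 1.38 to 1.72), and without both D2 libraries numbered 1 (1.42 and an adjusted p = 0.0929).

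At D0, *Gas1* varied widely between replicates. It was at 408, 230.5 and 94.3 CPM in WT D0 and at 505, 189.7 and 102 CPM in KO D0, highest in replicate 1 and lowest in replicate 3 of both genotypes. From D0 to D2 the log2 fold change was 1.29 ± 0.56 in WT and 1.22 ± 0.56 in KO (SE), with limma's adjusted p = 0.106 and 0.121. The 2 comparisons of D2 share the D2 libraries. Same-numbered KO libraries deviated together, and in a fit with replicate blocks the D2/D0 value of KO had an adjusted p = 0.0258 by limma. Without D0 replicate 1 the value was called in WT (1.78) and in KO (1.84).

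*Smo* encodes the membrane protein that passes the signal on when Ptch1 releases it. It was at 165, 179.8 and 166 CPM in WT Prol and at 129.5, 89.1 and 93.5 CPM in WT D2. In KO it was at 177, 162 and 172 CPM at Prol and at 138, 97.2 and 99.4 CPM at D2. All D2 libraries lay below all Prol libraries. Within a genotype, such a separation in this direction was seen for 20.5% of all genes in WT and 22.6% in KO. D2 replicate 1 was the highest of its group in both genotypes. *Smo* fell by 0.73 ± 0.20 (SE) on the log2 scale in WT, a 1.66-fold fall with limma's adjusted p = 0.0123. It fell by 0.63 ± 0.20 in KO, a 1.55-fold fall with an adjusted p = 0.0252. Without both D2 libraries numbered 1 the log2 fold changes were -0.90 in WT and -0.80 in KO, with limma's adjusted p = 0.00233 and 0.00462. The call was lost in WT without WT D2 replicate 2 (-0.63) or 3 (-0.66), and in KO without KO Prol replicate 1 (-0.61) or 3 (-0.63) or KO D2 replicate 2 (-0.55) or 3 (-0.56).

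At D0, *Smo* was at 174, 139.6 and 174 CPM in WT and at 191, 123 and 176 CPM in KO. WT D0 lay above WT D2 in every library, a separation found for 33.2% of all genes in either direction. KO D0 and KO D2 overlapped through KO D0 replicate 2 and KO D2 replicate 1, while 36.7% of all genes did not overlap. *Smo* fell from D0 to D2 in WT, with a log2 fold change of -0.66 ± 0.20 (SE) and limma's adjusted p = 0.0258. That call was lost without WT D0 replicate 1 (-0.60) or 3 (-0.60) or WT D2 replicate 2 (-0.55) or 3 (-0.59), and in a fit of the compared groups only (adjusted p = 0.145). In KO the log2 fold change was -0.54 ± 0.20 (SE) with limma's adjusted p = 0.0572, and with replicate blocks the adjusted p was 0.00661. It was called without KO D0 replicate 2 (-0.74), without KO D2 replicate 1 (-0.70) and without both D2 libraries numbered 1 (-0.70, limma's adjusted p = 0.0115). Of the 7 genes, 1 was called between D0 and D2 in WT, where 26% of all genes were called, and 0 in KO, where 28.3% were. At an unadjusted p under 0.05 the KO count was 2, with 38.8% of all genes, and limma with voom weights gave 0.

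*Ptch1* encodes the receptor, which is also a target of Gli proteins. It was at 25.5, 19.6 and 22.1 CPM in WT Prol, 33.3, 10.9 and 19.3 CPM in WT D0 and 19.7, 7.67 and 10.3 CPM in WT D2. In KO it was at 25.3, 21.5 and 21.9 CPM at Prol, 27.1, 14.8 and 18.2 CPM at D0 and 22.7, 11.1 and 11.6 CPM at D2. D2 replicate 1 overlapped with Prol in both genotypes while D2 replicates 2 and 3 lay below every Prol library. Each D2 library was below its same-numbered Prol library in both genotypes. In WT these libraries were not taken as paired, since deviations of replicate 3 correlated at only 0.0393. The share of all genes with this order was not computed. The log2 fold change from Prol to D2 was -0.94 ± 0.40 (SE) in WT and -0.68 ± 0.40 in KO, with limma's adjusted p = 0.0875 and 0.221. The 95% intervals were -1.79 to -0.09 and -1.53 to 0.17. With replicate blocks, the KO value had an adjusted p = 0.0168 by limma, and 48.6% of all genes were then called. Without both D2 libraries numbered 1, the log2 fold changes were -1.33 in WT and -1.01 in KO, with limma's adjusted p = 0.0113 and 0.0412, and leaving out WT D2 replicate 1 alone was enough for the WT call (-1.33). From D0 to D2 they were -0.72 ± 0.40 in WT and -0.44 ± 0.40 in KO (SE), with limma's adjusted p = 0.209 and 0.448, and without both D2 libraries numbered 1 the WT value was called (-1.11, adjusted p = 0.0341).

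*Sufu* encodes the protein that holds Gli factors in the cytoplasm. Its libraries spanned 36.2 to 40.7 CPM in WT Prol, 23.2 to 44.7 CPM in WT D0 and 29.3 to 43.6 CPM in WT D2. In KO they spanned 34.0 to 41.3 CPM, 27.0 to 49.6 CPM and 25.9 to 41.7 CPM. All 6 groups overlapped, and replicate 2 was the lowest library in each of them. From Prol to D2 the log2 fold change was -0.17 in WT (95% interval -0.73 to 0.39) and -0.20 in KO (-0.77 to 0.36). Each interval includes a fall of the size that *Smo* showed in the same genotype, in WT only at its edge (limit -0.733, *Smo* -0.729).

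*Gli3* encodes the Gli factor that is cut to a repressor when the pathway is off. It was at 83.2, 70.7 and 85.7 CPM in WT Prol, 109.6, 34.4 and 77.8 CPM in WT D0 and 62.0, 27.9 and 41.9 CPM in WT D2. In KO it was at 96.9, 63.0 and 86.8 CPM at Prol, 101, 42.2 and 85.9 CPM at D0 and 86.4, 34.5 and 43.2 CPM at D2. WT D2 lay below WT Prol in every library, a separation in this direction seen for 20.5% of all genes in WT. In KO the groups overlapped through KO D2 replicate 1 alone. The KO and WT responses from Prol to D2 differed by 0.25 ± 0.62 (SE) on the log2 scale, which was not called. The log2 fold change from Prol to D2 was -0.93 ± 0.44 (SE) in WT and -0.68 ± 0.44 in KO, with limma's adjusted p = 0.123 and 0.266. The KO value with replicate blocks had an adjusted p = 0.0177 by limma. Without both D2 libraries numbered 1, the log2 fold changes were -1.22 in WT and -1.07 in KO, with limma's adjusted p = 0.041 and 0.0681. From D0 to D2 they were -0.67 ± 0.44 in WT and -0.51 ± 0.44 in KO (SE), with limma's adjusted p = 0.292 and 0.429.

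*Gli2*, which encodes the main activator, was listed at 5.07, 3.97 and 2.82 CPM in WT Prol, 7.28, 2.08 and 2.33 CPM in WT D0 and 4.39, 3.02 and 3.25 CPM in WT D2. In KO its libraries spanned 3.18 to 3.70 CPM at Prol, 2.71 to 4.44 CPM at D0 and 2.05 to 3.35 CPM at D2. All groups overlapped, with WT D0 replicate 1 as the highest library. From Prol to D2 the log2 fold change was -0.13 in WT (95% interval -0.99 to 0.73) and -0.25 in KO (-1.11 to 0.61).

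*Gli1*, the transcript most often read as a sign of pathway activity, stood at 4 to 42 expected counts per library. It was at 0.442, 0.652 and 0.490 CPM in WT Prol, 0.848, 0.465 and 0.411 CPM in WT D0 and 0.134, 0.724 and 0.801 CPM in WT D2. In KO it was at 0.375, 1.12 and 0.283 CPM at Prol, 0.443, 1.11 and 0.274 CPM at D0 and 0.180, 0.575 and 0.589 CPM at D2. D2 replicate 1 was the lowest of its group in both genotypes, at 4 and 5 counts against 22 to 28 counts in the other D2 libraries. A level of 3 counts equals 0.0759 to 0.138 CPM here. From Prol to D2 the log2 fold change was -0.29 in WT (95% interval -1.86 to 1.29) and -0.32 in KO (-1.89 to 1.25). Without both D2 libraries numbered 1 it was 0.55 in WT and 0.25 in KO, so that the direction rested on those libraries. These intervals were the widest of the 7 genes.

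Confluence alone gave no call among the 7 genes. Between Prol and D0, 0 of the 7 genes passed an adjusted p under 0.05 in limma in either genotype, where 0.00566% of all genes were called in WT and 0% in KO, and 0 passed an unadjusted p under 0.05 or limma with voom weights. At an unadjusted p under 0.05, 2.17% and 1.12% of all genes were called. The log2 fold changes lay between -0.26 for *Gli3* and 0.14 for *Gas1* in WT and between -0.23 for *Ptch1* and 0.34 for *Gas1* in KO.

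**Figure D2:**
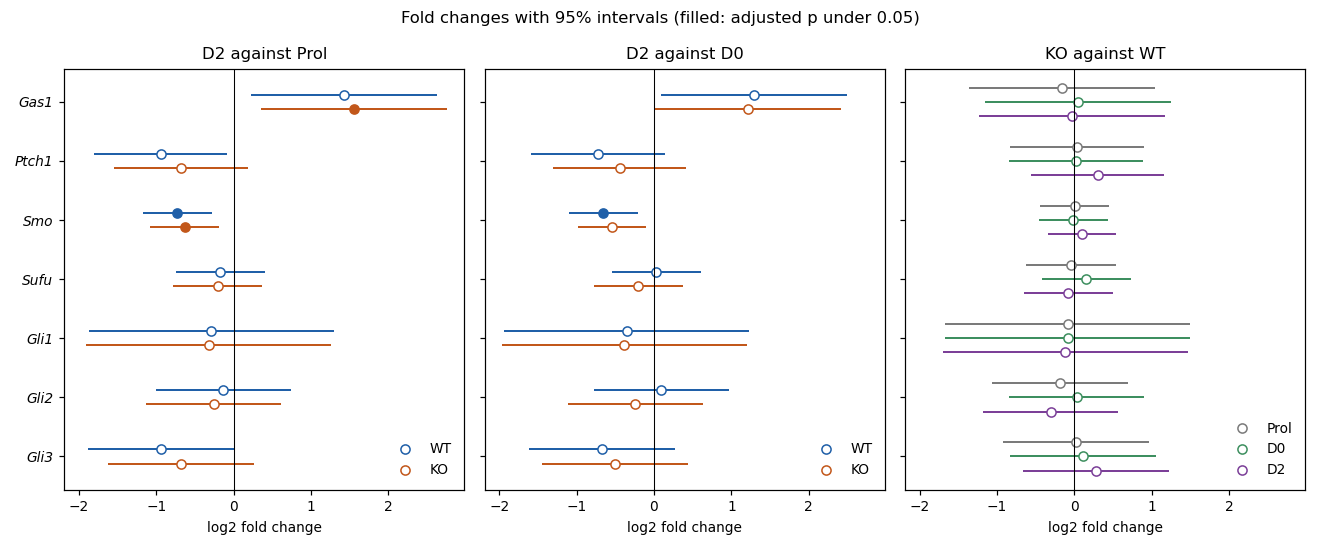
Log2 fold changes of the 7 genes (x axis) with 95% intervals from limma, for D2 against Prol and D2 against D0 in WT and KO, and for KO against WT at Prol, D0 and D2. Filled points passed an adjusted p under 0.05: *Smo* in both genotypes and *Gas1* in KO for D2 against Prol, and *Smo* in WT for D2 against D0. All intervals of KO against WT include 0.

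The second question was whether loss of LAP2α altered these genes. For KO against WT, 0 of the 7 genes were called at Prol, D0 or D2 or in the mean over the 3 states (limma, adjusted p = 1 for each). The shares over all genes were 0.00566%, 0%, 0% and 0.00566%. At an unadjusted p under 0.05, and with voom weights, the count of the 7 genes was also 0, while 1.11%, 1.47% and 1.96% of all genes had an unadjusted p under 0.05 at Prol, D0 and D2, and 2.3% in the mean. At Prol the log2 differences lay between -0.19 for *Gli2* and 0.04 for *Ptch1*, and at D0 between -0.09 for *Gli1* and 0.15 for *Sufu*. Averaged over the 3 states, the log2 difference of KO from WT was 0.03 for *Smo* (95% interval -0.22 to 0.28), 0.01 for *Sufu* (-0.32 to 0.34) and 0.12 for *Ptch1* (-0.37 to 0.61). It was 0.14 for *Gli3* (-0.40 to 0.67), -0.15 for *Gli2* (-0.65 to 0.34), -0.05 for *Gas1* (-0.74 to 0.64) and -0.10 for *Gli1* (-1.0 to 0.81). *Smo* and *Sufu* had the narrowest intervals and *Gli1* the widest.

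At D2, *Ptch1*, *Smo* and *Gli3* were higher in the KO library in 3 of 3 same-numbered pairs, by a mean log2 difference of 0.30, 0.10 and 0.28. *Gas1*, *Sufu*, *Gli1* and *Gli2* were higher in KO in 1 of 3 pairs. Deviations of *Ptch1*, *Smo* and *Gli3* from group means correlated at r = 0.83 to 0.93, so these are not 3 separate observations. The share of all genes with 3 of 3 pairs in one direction was not computed, so the count is no result about these genes. The 95% intervals were -0.55 to 1.15, -0.33 to 0.53 and -0.66 to 1.21, and the WT and KO libraries overlapped for each gene. The difference between the KO and WT responses from Prol to D2 was 0.26 for *Ptch1* (95% interval -0.94 to 1.47), 0.09 for *Smo* (-0.52 to 0.70) and 0.25 for *Gli3* (-1.06 to 1.57). Among all 17672 genes, 0 had a response that differed between the genotypes at an adjusted p under 0.05 in limma, 0 with voom weights, and 167 (0.945%) at an unadjusted p under 0.05.

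The 7 genes differed in how their libraries scattered around the group means. Deviations of log2 CPM from the group mean, taken over the 18 libraries, correlated at r = 0.98 for *Sufu* and *Gli3*, 0.93 for *Ptch1* and *Gli3*, 0.91 for *Ptch1* and *Sufu*, and 0.89 for *Smo* and *Gli3*. *Gli1* and *Smo* deviated in opposite directions (r = -0.74). These are descriptions, since the libraries share replicate numbers and scaling. The deviations of *Smo*, *Ptch1*, *Gli3* and *Sufu* also followed the deviation of the log2 TMM factor of the library from its own group mean, with r = -0.85, -0.67, -0.65 and -0.61, while *Gli1* had r = 0.83, *Gli2* -0.18 and *Gas1* -0.16. Of 13291 genes with a mean of at least 1 CPM, 28.2% had an r of -0.6 or below and 17.9% an r of 0.6 or above. The part of the scaling factor in the results was not tested.

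**Figure D3:**
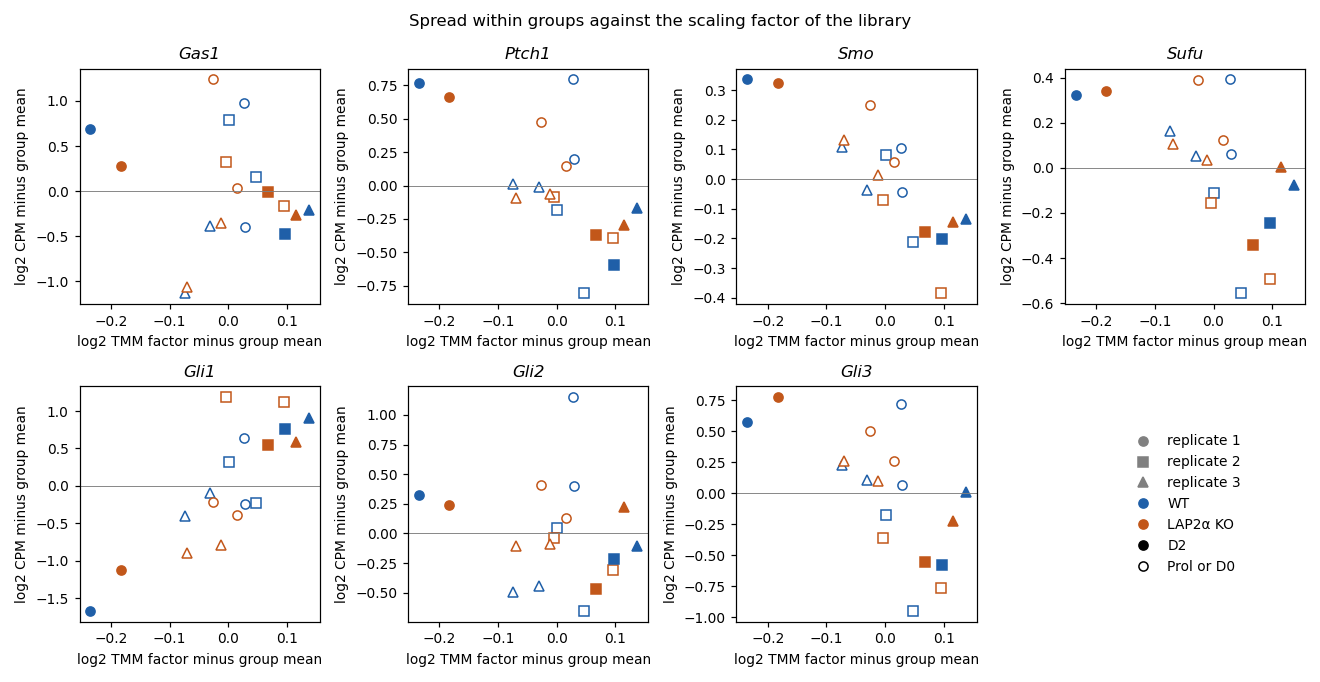
Deviation of each library from its group mean (y axis, log2 CPM) against the deviation of its log2 TMM factor from the group mean (x axis) for the 7 genes; symbols give the replicate number, colours the genotype and filled symbols D2. *Smo* declines with the factor (r = -0.85) and *Gli1* rises (r = 0.83), and the D2 libraries numbered 1 lie at the left end with the D2 libraries numbered 2 and 3 to the right of 0.

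Among the same 13291 genes, the 2 with the pattern of log2 CPM most like each of the 7 genes over the 18 libraries were found by Pearson's r. They were *Cavin3* (0.96) and *C1rl* (0.95) for *Gas1*, *Cep170b* (0.98) and *Arid1a* (0.97) for *Ptch1*, *Prkar2b* (0.98) and *Psip1* (0.98) for *Smo*, and *Zc3h7b* (0.98) and *Ndst1* (0.97) for *Sufu*. They were *Anapc1* (0.98) and *Tpr* (0.98) for *Gli3*, *Eif2ak2* (0.88) and *Crybg1* (0.86) for *Gli2*, and *Hoxa3* (0.90) and *Atg4c* (0.87) for *Gli1*. An r above 0.9 was shared with 820 genes for *Smo*, 627 for *Gli3*, 359 for *Ptch1*, 350 for *Sufu*, 57 for *Gas1*, 1 for *Gli1* and 0 for *Gli2*. The patterns of *Smo* and *Gli3* were thus common ones, and those of *Gli1* and *Gli2* had few or no close matches.

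Other genes of the pathway were counted by role, from lists chosen with earlier results of these data known. From Prol to D2, 30.7% of all genes were called in WT and 32.3% in KO. The ligand genes *Shh*, *Ihh* and *Dhh* were not analysed here. *Hhat*, the acyltransferase that modifies the ligands, rose from Prol to D2 by a log2 fold change of 0.97 ± 0.23 in WT and 1.28 ± 0.23 in KO (SE), with limma's adjusted p = 0.00436 and 0.000481. It was the only call among the 4 tested genes of ligand release, beside *Disp1* (0.33 and 0.25), *Scube1* (-1.56 and -0.27) and *Scube3* (1.35 and 0.03).

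Of the 4 tested co-receptors and ligand-binding proteins other than *Gas1* and *Ptch1*, 1 rose in WT and 0 were called in KO. Of all genes, 30.7% and 32.3% were called. The median log2 fold changes of the 4 genes were -0.04 and -0.80. *Boc*, an immunoglobulin-family co-receptor also known for promoting myogenesis, was at 4.86, 7.45 and 5.96 CPM in WT Prol and at 11.4, 13.4 and 10.1 CPM in WT D2. It was at 6.61, 6.24 and 6.44 CPM in KO Prol and at 6.76, 8.25 and 9.02 CPM in KO D2. *Boc* rose in WT by 0.94 ± 0.22 (SE) on the log2 scale, with limma's adjusted p = 0.00414, and its log2 fold change in KO was 0.31. The WT and KO libraries of *Boc* did not overlap at D2, as held for 6.17% of all genes. Its log2 difference there was -0.53 ± 0.22 (SE), with an unadjusted p of 0.0284 in limma's fit over all genes, and was not called. The difference between the responses, -0.63 ± 0.31 (SE), had an adjusted p = 1 (limma). *Cdon*, the related co-receptor, had log2 fold changes of 0.75 and 0.94 with limma's adjusted p = 0.135 and 0.0596.

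*Hhip* encodes a decoy that binds the ligands and is itself a Gli target. It was at 3.55, 2.71 and 6.43 CPM in WT Prol, 3.37, 3.18 and 6.28 CPM in WT D0 and 1.32, 2.09 and 4.03 CPM in WT D2. In KO it was at 2.95, 1.12 and 4.38 CPM at Prol, 3.61, 0.641 and 2.89 CPM at D0 and 1.19, 0.249 and 0.904 CPM at D2. The KO library was lower in each same-numbered pair at Prol and D2, but higher in replicate 1 at D0. The share of all genes with this order was not computed. At D2 the groups did not overlap, as held for 6.17% of all genes. Over the 3 states *Hhip* differed by -1.20 ± 0.42 (SE) on the log2 scale, with an unadjusted p of 0.0108 in limma's fit over all genes and an adjusted p = 1, so it did not pass. In the same fit over all genes, the target genes *Jag2* (-0.64, unadjusted p of 0.00639) and *Foxf1* (0.46, unadjusted p of 0.0434) did not pass either (adjusted p = 1), and their signs were opposite. *Lrp2*, an endocytic receptor, had log2 fold changes from Prol to D2 of -1.89 in WT and -1.92 in KO, with limma's adjusted p = 0.0902 and 0.0823.

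Among 14 negative regulators and Gli-processing factors, 1 rose and 1 fell in each genotype, with a median log2 fold change of 0.12 in WT and 0.01 in KO. Fewer of them were called than the 30.7% and 32.3% of all genes, so the count is no result about the list. *Kif7*, a ciliary kinesin that restrains Gli factors, fell by 1.02 ± 0.16 in WT and by 1.12 ± 0.16 in KO (SE, log2 scale). *Btrc*, the F-box protein that marks Gli3 for processing, rose in WT by 0.56 ± 0.15 (SE, log2 scale), with 0.40 in KO. *Mgrn1*, a ubiquitin ligase named after its value was seen, rose in KO by 0.78 ± 0.28 (SE, log2 scale), with 0.73 in WT.

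Among 8 genes listed as positive regulators of the pathway, 1 rose and 3 fell in each genotype, with medians of -0.49 and -0.47. Of all genes, 16.6% rose and 14.1% fell in WT, and 17.1% and 15.2% in KO. Whether this short list differs from these shares was not tested. *Stk36*, the Fused kinase, rose by 1.85 ± 0.26 in WT and 1.64 ± 0.26 in KO (SE, log2 scale). *Grk2*, a kinase that phosphorylates Smo, had log2 fold changes of -1.09 in both, the arrestin gene *Arrb1* of -1.02 and -0.86, and *Arrb2* of -1.16 and -1.26, and each of these passed the test. Together with *Smo* itself, these 3 genes fell in both genotypes.

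Of 14 tested genes known as Gli targets, *Gli1*, *Ptch1* and *Hhip* included, 1 rose and 2 fell in WT and 2 rose and 1 fell in KO, with median log2 fold changes of -0.39 and -0.31. Fewer of the targets were called than the 30.7% and 32.3% of all genes, so these counts are no result about the list. *Ccnd1*, the cyclin D1 gene, fell by 3.03 ± 0.44 in WT and by 2.64 ± 0.44 in KO (SE, log2 scale). *Jag2*, a Notch ligand, rose by 1.21 in WT and 1.26 in KO. *Foxf2*, a forkhead factor, fell in WT (-1.62, limma's adjusted p = 0.0195), with -1.22 in KO. *Sfrp1*, a secreted Wnt antagonist, rose in KO (2.90, limma's adjusted p = 0.049975), with 2.45 in WT. No change passed the test for *Bmp4* (1.22 and 1.35), *Ccnd2* (-0.004 and 0.39), *Bcl2* (-0.03 and 0.14), *Foxf1* (-0.50 and -0.68), *Foxl1* (-0.52 and 0.14), *Snai1* (-0.26 and -0.79) or *Myf5* (-0.52 and -0.30), in WT and KO. The calls among the targets were in both directions. *Mycn* and *Nkx2-2* were not analysed here.

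Of 8 genes for enzymes and adaptors that modify Gli1, 2 rose and 1 fell in each genotype, beside 30.7% and 32.3% of all genes called. *Dyrk1b*, a kinase, rose by 1.72 in WT and 1.82 in KO, *Kat2b*, an acetyltransferase, rose by 0.69 and 0.93, and *Hdac1*, a deacetylase, fell by 0.42 and 0.50 (log2 scale). Of 30 genes of the primary cilium, the organelle in which Smo acts, 5 rose and 3 fell in WT and 4 rose and 3 fell in KO, with medians of 0.13 and 0.23. Fewer of the cilium genes were called than the 30.7% and 32.3% of all genes, so the count is no result about the list. *Ift27* (1.18 and 1.22), *Ift122* (0.89 and 0.86) and *Dync2li1* (0.89 and 0.78) rose, and *Cep290* (-1.41 and -1.22), *Ift57* (-0.79 and -0.70) and *Cep164* (-0.72 and -0.70) fell in WT and KO. For KO against WT at D2, 0 genes of any of these lists were called in limma, and *Hhip* and *Boc* had an unadjusted p of 0.0244 and 0.0284 in that fit over all genes.

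**Figure D4:**
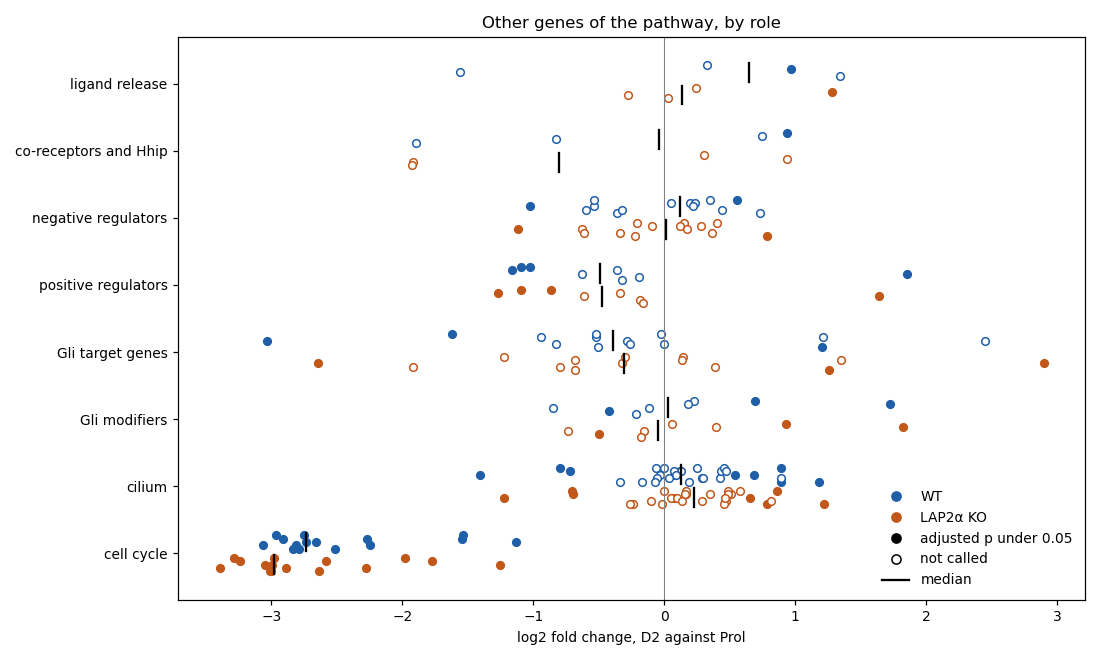
Log2 fold changes of D2 against Prol (x axis) for the tested genes of 8 lists, with WT above KO for each list; filled points passed an adjusted p under 0.05 and black bars are medians. The lists of the pathway spread to both sides of 0, whereas all 15 cell cycle genes lie at or below -1.13 in WT and -1.26 in KO.

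Cell cycle genes and markers of other cell types moved between Prol and D2 as well. Of all genes, 16.6% rose and 14.1% fell in WT, and 17.1% and 15.2% in KO. The marker lists are short, and their counts were not tested against these shares. All 15 cell cycle genes fell in both genotypes, with medians of -2.73 and -2.98 on the log2 scale, led by *Rrm2*, *Aurkb* and *Birc5* in WT, and their summed level went from 3213 to 3867 CPM in the Prol libraries to 454 to 799 CPM in the D2 libraries. Of 5 tested fibroblast markers, 4 rose in each genotype, and their summed level, mostly *Col1a1*, went from 423 to 2199 CPM in the Prol libraries to 1919 to 13759 CPM in the D2 libraries, with overlap. In WT Prol, 1 of the 5 was at or under 3 counts in every library. *Dcn*, a defining fibroblast marker, averaged 0.21 CPM in WT Prol and 47.8 CPM in WT D2. Summed mural markers went from 175 to 474 CPM to 521 to 1448 CPM, with *Acta2* rising in each genotype (1 of 3). Chondrocyte markers had 1 of 4 rising and 1 of 4 falling in each genotype, Schwann markers 1 of 2 rising, macrophage markers 1 of 2 falling and adipocyte markers 0 of 4 called (sums of 29.9 to 205 CPM). Endothelial markers had 0 of 3 called in WT and 2 of 3 rising in KO. The highest library reached 2.46 CPM of summed endothelial, 4.11 CPM of Schwann and 8.0 CPM of macrophage markers. The part of these cells or states in the changes of *Gas1* and *Smo* was not tested.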

How the data were processed

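Groups and replicate numbers of the 18 myoblast libraries came from the labels. Reads had been trimmed (cutadapt), mapped to the GRCm38 transcriptome (NextGenMap) and turned by the authors into strand-specific expected counts (RSEM), after which genes with low counts were removed. The deposited values are the authors' CPM, with 0.5 counts added and TMM scaling by edgeR, written with decimal commas. Expected counts and library totals were recovered from them, and 36.0% to 49.1% of counts under 20 were whole (tolerance 0.01), so they are estimates and not whole reads.

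Log2 of the deposited CPM was fitted with limma 3.58.1 in R 4.3.3 (lmFit, eBayes with trend), with group as the only factor. Genes entered if some group had over 5 expected counts in each of its 3 libraries, which kept 17672. No further pseudocount was added. Calls had a Benjamini-Hochberg adjusted p under 0.05 over all genes tested, and intervals are 95%. Alternative call rules, at an unadjusted p under 0.05 and at least 10 CPM, were a change over 1.5-fold and, added after the data were seen, the cut that the methods of the study state, an absolute log2 fold change over 1.5. The lane used as a block in the study is not given in the sources used here. The script was tested on simulated data. Plots were made in Python 3.11.15 with matplotlib 3.10.9.

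The 7 genes and all lists were chosen with earlier results of these data known. Named were the 7 genes, all ligands, co-receptors and Gli targets, up to 3 called genes a direction from the other pathway lists by their WT D2/Prol change, and the 2 genes most like each of the 7. Same-numbered libraries were taken as paired where deviations from the group means correlated above 0.1 in all 3 pairs. This held for the KO comparisons (0.151 to 0.469), D0/Prol in WT and KO/WT, and not for D2/Prol and D2/D0 in WT, where replicate 3 gave 0.0393 and 0.0100. Alternatives were other scalings, filters and weights, a pseudocount of 1 CPM, the replicate block, fits of the compared groups only and each library left out.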

Additional observations from a re-analysis of the deposited data

How the results depend on the processing

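The count of the 7 genes called depended on the spread that was modelled. For WT D2/Prol it was 1, and 2 with library totals in place of TMM scaling. It was 4 with the replicate block (47.7% of all genes) and 4 with the block as a random effect and voom weights. It was 3 with the compared groups only and 3 without both D2 libraries numbered 1. At an unadjusted p under 0.05 it was 4 (40.6% of all genes), also with a change over 1.5-fold and at least 10 CPM. For KO D2/Prol it was 2, and 4 with either replicate block (48.6% of all genes with the fixed block). For WT D2/D0 it was 1, and 4 with either replicate block (43.2% of all genes with the fixed block). It was 0 with the compared groups only and 2 without both D2 libraries numbered 1. At an unadjusted p it was 2 (36.6% of all genes), also with that fold and level. For KO D2/D0 it was 0, and 1 with library totals and 1 with a filter of at least 1 CPM. It was 2 with either replicate block (46% of all genes with the fixed block, a larger share than 2 of 7). It was 1 without both D2 libraries numbered 1, 2 at an unadjusted p (38.8% of all genes) and 1 with that fold and level. For the other settings, the shares of all genes are not given here. With the study's stated cut, an absolute log2 fold change over 1.5, *Gas1* in KO D2/Prol was the only call (1), and the counts for WT D2/Prol, WT D2/D0 and KO D2/D0 were 0. With each library left out in turn, the counts ranged over 0 to 2 for WT D2/Prol and 0 to 1 for KO D2/Prol, WT D2/D0 and KO D2/D0, and were 0 in the other comparisons. The causes were not tested.

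The replicate block in WT, where replicate 3 did not meet the pairing rule, called *Gas1*, *Ptch1*, *Smo* and *Gli3* in D2/Prol (adjusted p = 0.0103, 0.00213, 0.000733 and 0.00251 by limma) and in D2/D0 (0.0202, 0.0134, 0.00198 and 0.0213), with 47.7% and 43.2% of all genes called. It called none of the 7 genes in D0/Prol or KO/WT. Library totals moved the median of all genes from -0.01 to 0.15 in WT D2/Prol and from 0.02 to 0.16 in KO D2/Prol, and under every scaling *Smo* was lower and *Gas1* higher at D2 than at Prol.

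Of 793 single-gene log2 fold changes under other settings, 742 kept their direction and side of the threshold, 30 gained a call, 2 lost one and 19 reversed. Among those given in the text, the reversed values were, without both D2 libraries numbered 1, 0.55 (*Gli1*, WT D2/Prol), 0.25 (*Gli1*, KO D2/Prol) and 0.021 (*Gas1*, KO/WT over the 3 states), with library totals 0.029 (*Gli2*, WT D2/Prol) and with a pseudocount of 1 CPM 0.008 (*Gli1*, KO/WT at D0).

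With 1 library left out, 150 of 672 values reversed, none of them a called value. For D2/Prol, the ranges that crossed 0 were -0.741 to 0.549 (*Gli1*, WT), -0.357 to 0.067 (*Gli2*, WT) and -0.716 to 0.274 (*Gli1*, KO). For D0/Prol they were -0.353 to 0.704 (*Gas1*, WT), -0.621 to 0.215 (*Gli3*, WT) and -0.28 to 0.876 (*Gas1*, KO). For KO/WT they were -0.057 to 0.134 (*Ptch1*, Prol), -0.409 to 0.015 (*Gli2*, Prol), -0.123 to 0.401 (*Sufu*, D0), -0.645 to 0.364 (*Gli1*, D0), -0.034 to 0.683 (*Ptch1*, D2), -0.061 to 0.269 (*Smo*, D2) and -0.111 to 0.563 (*Gli3*, D2). Over the 3 states they were -0.255 to 0.13 (*Gas1*), -0.016 to 0.251 (*Ptch1*), -0.023 to 0.095 (*Smo*), -0.082 to 0.092 (*Sufu*), -0.375 to 0.092 (*Gli1*), -0.263 to 0.037 (*Gli2*) and -0.022 to 0.263 (*Gli3*). For the response difference they were -0.262 to 0.477 (*Gas1*), -0.069 to 0.648 (*Ptch1*), -0.067 to 0.263 (*Smo*) and -0.135 to 0.539 (*Gli3*).

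*Gli1* had the fewest counts of the 7 genes, 4 to 42 per library, and the part of depth in its spread was not tested.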
